A study of Homo sapiens with 40 samples.

Results

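The 36 genes described here are MYC and 35 genes that build ribosomes, out of 60708 genes in the count files. They were taken as a list of gene symbols, and each symbol matched 1 gene. Their RNA was measured in 24 RNA-seq libraries of cultured human breast cells, with 3 libraries in each of 8 groups, while the 16 ATAC-seq samples of the series were not analysed here. MI cells are MCF-10A, an immortalized, non-tumorigenic mammary epithelial line, and MII cells are MCF-10A carrying an oncogenic HRAS. Both were grown as 3D spheres in ultra-low attachment plates and either left unstimulated (Ctrl) or given TGFβ1 at 2.5 ng/ml for 16 h. MDA-MB-231, a triple-negative breast cancer line, was grown as a monolayer, with no TGFβ named in its labels. Its WT libraries were compared with libraries labelled SLUG KO (CRISPR/Cas9 against SNAI2, cells expanded from single-cell colonies), and cells given siRNAs against SMAD2, SMAD3 and SMAD4 (siSMAD2/3/4) with cells given a scrambled siRNA (Csi). All 8 groups were cell lines, so the replicates were cultures of a line and not donors.

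Ribosomes are assembled mainly in the nucleolus. RNA polymerase I transcribes the ribosomal RNA precursor, small nucleolar ribonucleoproteins (snoRNPs) modify it, and processing factors cleave it and fold it into the small and the large subunit. MYC is a transcription factor that binds the sequence CACGTG, called the E-box, as a dimer with MAX, and genes of ribosome biogenesis are among the targets it is best known for. In many epithelial cells TGFβ is known for lowering MYC transcription through SMAD complexes as cells stop dividing.

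Beside MYC, the genes fell into 6 roles. The box C/D snoRNP, which guides RNA 2′-O-methylation, had 3 members (NOP56, NOP58 and the methyltransferase FBL). The box H/ACA snoRNP, which guides pseudouridylation, also had 3 (GAR1, NHP2 and the pseudouridine synthase DKC1). A group labelled scaffold and chaperone had 6 nucleolar proteins (NCL, NPM1, NOLC1, GNL3, DDX21 and LYAR), though the label does not describe each of them. Small-subunit maturation had 10 (NOP14, WDR43, RRP9, RRP12, UTP4, UTP15, UTP20, HEATR1, NAT10 and BYSL) and large-subunit maturation 9 (NOP2, NOP16, WDR12, BOP1, PES1, WDR74, RRS1, EBNA1BP2 and GRWD1). RNA polymerase I had 4 (the subunits POLR1A, POLR1B and POLR1C, and the initiation factor RRN3).

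Promoter sequence was read for the members from RefSeq's table for GRCh38.p14, which covers 250 bases before to 50 bases after each listed start site. Entries were found for 30 of the 36 members, and MYC, NOP58, NOLC1, RRP12, BOP1 and RRS1 are named only. CACGTG, which reads the same on both strands, was present in a window of 15 of these 30 genes (50%). Over all 27305 genes of the table the share was 8.77%, and over the 11596 table genes tested in MI-spheres it was 12.1%. Among 100 other ribosome biogenesis genes, 85 had an entry and 23 of those (27.1%) held the motif. The sequences shown are those of members that hold the motif and stand out in a comparison of RNA levels, with CACGTG in capitals. The first set gives 30 bases around the motif, 5′ to 3′ on the strand of the gene. Counting the start site as base 1, the motif began at base 7 in FBL (chr19:39846356-39846385, minus strand) and at base 32 in GAR1 (chr4:109815781-109815810, plus strand, 1 of 2 listed start sites). EBNA1BP2 has 2 listed start sites, and each promoter held a motif, at chr1:43172241-43172270 and chr1:43172790-43172819 on the minus strand.
FBL: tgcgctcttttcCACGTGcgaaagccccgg
GAR1: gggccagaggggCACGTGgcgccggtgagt
EBNA1BP2, first site: tggcgctggagcgattcggtggCACGTGga
EBNA1BP2, second site: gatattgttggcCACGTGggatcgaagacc

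The second set gives the 250 bases upstream of the start site for LYAR and UTP20, the members with the highest TGFβ fold-change and the largest difference between the lines. In UTP20 (chr12:101279855-101280104, plus strand) CACGTG began 10 bases before the start site. In LYAR (chr4:4290022-4290271, minus strand, 1 of 2 listed start sites) it began 64 bases before it. A match of these letters is a description and not a site of binding.
UTP20: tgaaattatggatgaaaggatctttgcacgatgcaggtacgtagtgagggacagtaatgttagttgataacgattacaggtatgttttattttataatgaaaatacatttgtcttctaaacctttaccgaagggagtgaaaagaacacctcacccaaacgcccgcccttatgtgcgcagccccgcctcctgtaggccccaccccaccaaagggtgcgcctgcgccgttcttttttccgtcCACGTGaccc
LYAR: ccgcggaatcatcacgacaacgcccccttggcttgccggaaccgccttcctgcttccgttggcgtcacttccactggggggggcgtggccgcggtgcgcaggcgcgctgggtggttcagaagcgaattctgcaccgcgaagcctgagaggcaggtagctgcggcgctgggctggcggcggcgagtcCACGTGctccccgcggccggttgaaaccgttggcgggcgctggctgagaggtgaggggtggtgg

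Library totals ran from 14124688 to 38406952 counts, and the members together held 51053 to 154870 counts per library. Levels are in CPM, which relates a count to 1000000 counts of the library after TMM scaling, and means carry the SD of the 3 libraries of a group (n = 3). Log2 fold-changes are given with their standard error (SE). A gene was called when its p in edgeR's quasi-likelihood test, adjusted across the tested genes by Benjamini-Hochberg, was under 0.05. DEGs also had an absolute log2 fold-change above 1. Replicates correlated across genes at r of at least 0.994 in 7 groups, whereas WT replicate 2 stood apart from the other WT libraries (r = 0.959 and 0.955). HRAS was at 40.7 ± 1.01 CPM in unstimulated MI- and 220 ± 4.09 CPM in unstimulated MII-spheres. The basal keratin KRT5 was detected in all sphere libraries. In WT MDA-MB-231 cells KRT5 was at 0, the mesenchymal marker VIM at 784 ± 194 CPM and the epithelial cadherin CDH1 at 1.23 ± 0.425 CPM. Unstimulated MI-spheres held 1.71 ± 0.105 CPM of VIM and 527 ± 5.50 CPM of CDH1. Of the other mesenchymal markers, ZEB1 (94.5 CPM) and FN1 (773 CPM) were also higher in WT cells than in unstimulated MI-spheres (1.22 and 55.3 CPM). CDH2 was not, at 1.175 ± 0.704 CPM in WT cells and 1.541 ± 0.204 CPM in unstimulated MI-spheres. Of 5 leukocyte and endothelial markers, PTPRC and CD3E stayed under 1 CPM in all libraries, while in unstimulated MI- and MII-spheres CD14 was at 101.5 ± 4.07 and 192 ± 2.55 CPM and PECAM1 at 9.79 ± 0.955 and 104.6 ± 1.70 CPM.

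MYC differed more between the sphere lines than any other member except UTP20. In unstimulated MI-spheres it was at 168.3, 166.4 and 168.7 CPM, and with TGFβ at 247.6, 246.1 and 246.8 CPM. In MII-spheres it was at 69.9, 66.8 and 64.1 CPM without and at 58.6, 55.4 and 58.1 CPM with TGFβ. The 4 groups did not overlap, and stimulated MII-spheres held the lowest level among the 8 groups. Ranked by mean over the 18 libraries that share a sequencing batch, the order was stimulated MI (247 ± 0.771), unstimulated MI (168 ± 1.22), SLUG KO (158 ± 18.5), WT (101.7 ± 20.8), unstimulated MII (66.9 ± 2.89) and stimulated MII (57.4 ± 1.76). Of these neighbours, unstimulated MI and SLUG KO overlapped in range, and the others did not. Csi (84.2 ± 3.53 CPM) and siSMAD2/3/4 (90.7 ± 4.78 CPM) came from another sequencing batch and overlapped each other.

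**Figure D1:**
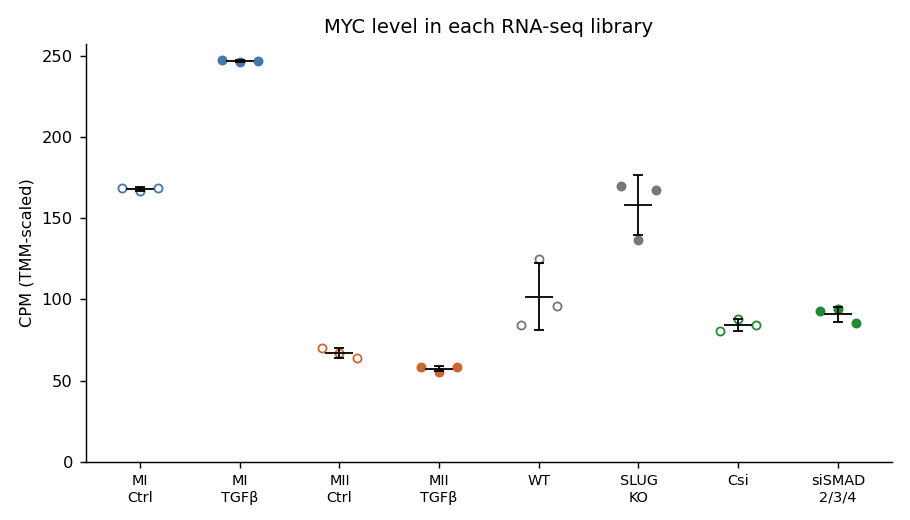
MYC level in CPM (vertical axis, linear, from 0) in each of the 24 libraries, by group on the horizontal axis. Points are libraries, and the line and bars are the mean and SD of 3 libraries. The 3 stimulated MI libraries sit between 246.1 and 247.6 CPM and the 3 stimulated MII libraries between 55.4 and 58.6 CPM, on opposite sides of their unstimulated groups.

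The first comparison asked how TGFβ changed the members in MI-spheres. Of the 36 members, 32 rose, none fell and 4 were not called (GNL3, NOP2, WDR74 and POLR1A). Among all 16863 genes tested, 28.7% rose and 27.4% fell. The members' median log2 fold-change was 0.46, beside -0.02 over all genes, and LYAR was the sole DEG among them, beside 13.5% of all genes. Markers of cell type moved in the same comparison. Of 7 basal mammary markers 6 rose (median 0.88, summed level 2778 to 2845 CPM without and 5208 to 5472 CPM with TGFβ), KRT5 among them from 106.6 ± 2.46 to 590.5 ± 20.4 CPM. Of 4 mesenchymal markers 3 rose (median 1.93, summed level 56.3 to 62.0 and 263 to 294 CPM). Their part in the members' result was not tested. MYC rose by a log2 fold-change of 0.47 ± 0.05 (SE; edgeR adjusted p = 1.66e-08).

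LYAR, a nucleolar zinc finger protein, was at 11.2, 12.5 and 10.1 CPM in unstimulated and at 25.7, 21.2 and 30.3 CPM in stimulated MI-spheres. Every stimulated library was above every unstimulated one, and the log2 fold-change was 1.10 ± 0.11 (edgeR adjusted p = 9.85e-09). NOP16, a factor of the large subunit, went from 28.0, 28.7 and 26.4 to 51.2, 47.0 and 54.9 CPM. Its groups did not overlap either, with a log2 fold-change of 0.80 ± 0.07 (edgeR adjusted p = 1.28e-09). Of its exonic bases, 18.5% overlap another gene, and the counting did not use strand. NOLC1, a chaperone that shuttles between nucleolus and cytoplasm, went from 90.2, 90.6 and 87.0 to 157.7, 148.6 and 159.3 CPM. That is a log2 fold-change of 0.72 ± 0.05 (edgeR adjusted p = 4.11e-11), again without overlap.

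By role, all 3 box C/D members rose in MI-spheres (median log2 fold-change 0.47), and so did all 3 box H/ACA members (0.65). Of the scaffold and chaperone members 5 of 6 rose (0.60), GNL3 being at -0.07 ± 0.06. All 10 small-subunit members rose (0.30), as did 7 of 9 large-subunit members (0.37) and 3 of 4 of RNA polymerase I (0.46). NOP2, an RNA methyltransferase, was the lowest member at -0.63 ± 0.34, at only 1.45 ± 0.420 and 1.01 ± 0.446 CPM. Reads over NOP2 are uncertain, because 54.4% of its exonic bases overlap another gene. Of 100 other ribosome biogenesis genes 76 rose and 1 fell, with a median of 0.32. The 1 that fell was TAF1C, a subunit of the initiation complex of RNA polymerase I (log2 fold-change -0.51 ± 0.09). RSL1D1 (0.80 ± 0.05) and NLE1 (0.75 ± 0.08), both of the large subunit, and TAF1B (0.88 ± 0.10), another subunit of that initiation complex, were among those that rose.

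In MII-spheres TGFβ raised 20 of the 36 members and lowered 3, and 13 were not called. The background was 30% of 16396 genes higher and 27.7% lower. The members' median log2 fold-change was 0.19, beside -0.02 over all genes, and none was a DEG, beside 10.6% of all genes. All 7 basal mammary markers rose here (median 1.52, summed level 1419 to 1486 CPM without and 3059 to 3166 CPM with TGFβ), as did 2 of 4 mesenchymal ones (summed level 140 to 146 and 163 to 177 CPM), and their part was not tested. MYC fell, with a log2 fold-change of -0.26 ± 0.05 (edgeR adjusted p = 4.34e-05). When libraries were scaled by their totals alone, without TMM, 9 members rose and 3 fell in MII-spheres, beside 19.49% of all genes higher and 39.19% lower, and the median of all genes moved to -0.15. In MI-spheres that scaling left 27 higher and 1 lower (GNL3), beside 19.44% and 37.37% of all genes, with the median of all genes at -0.15. MYC, UTP20 and WDR74 still fell in MII-spheres under it, whereas UTP20 was no longer called in MI-spheres.

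The members that rose most in MII-spheres were LYAR, FBL and EBNA1BP2. LYAR was at 8.73, 9.73 and 9.43 CPM without and at 13.9, 12.9 and 13.2 CPM with TGFβ, so that its log2 fold-change was 0.48 ± 0.11 (edgeR adjusted p = 0.000138). FBL, whose motif is shown above, went from 30.1, 32.4 and 26.8 to 46.5, 38.7 and 41.2 CPM, a log2 fold-change of 0.46 ± 0.07 (edgeR adjusted p = 5.12e-08). EBNA1BP2, a scaffold of the early large subunit, went from 52.5, 47.3 and 48.3 to 69.2, 63.8 and 68.6 CPM, a log2 fold-change of 0.41 ± 0.06 (edgeR adjusted p = 2.69e-09). None of these groups overlapped. Other genes share 15.4% of the exonic bases of EBNA1BP2.

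Besides MYC, WDR74 and UTP20 fell in MII-spheres. WDR74, which acts in late nucleolar steps of the large subunit, was at 27.3, 28.1 and 25.9 CPM without and at 21.4, 24.7 and 25.3 CPM with TGFβ. Its log2 fold-change was -0.23 ± 0.08 (edgeR adjusted p = 0.00965), and leaving out 1 library gave adjusted p up to 0.146. Of its exonic bases, 22.3% overlap other genes. UTP20, a large scaffold protein of the small-subunit processome, went from 373.1, 362.3 and 373.1 to 341.2, 341.3 and 325.0 CPM. Its groups did not overlap, and the log2 fold-change was -0.17 ± 0.04 (edgeR adjusted p = 1.99e-05).

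By role in MII-spheres, 2 of 3 box C/D, 2 of 3 box H/ACA, 5 of 6 scaffold and chaperone, 4 of 10 small-subunit, 5 of 9 large-subunit and 2 of 4 RNA polymerase I members rose. The medians of these roles ran from 0.15 for the small subunit to 0.31 for the box H/ACA snoRNP. Of 100 other ribosome biogenesis genes 52 rose and 9 fell, with a median of 0.16. RUVBL1 (0.56 ± 0.06) and RUVBL2 (0.46 ± 0.05), ATPases that help to assemble snoRNPs, rose. Those that fell were NAF1 of the snoRNP list, DDX47 of the small subunit, 4 large-subunit genes and 3 of RNA polymerase I. The lowest log2 fold-changes in these lists were -0.72, -0.73, -0.45 and -0.74, in that order. The large-subunit value (-0.45 ± 0.04) was that of MDN1, a dynein-like ATPase. Of 11 other RNA polymerase I genes 2 rose, with a median of -0.03.

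Members that rose in MI-spheres took several courses in MII-spheres. There 20 members rose in both lines, 10 rose in MI-spheres and were not called in MII-spheres, and MYC and UTP20 rose in MI- and fell in MII-spheres. The difference itself was tested as the interaction of line and TGFβ over 12 libraries. In it 19 of the 36 members had a smaller or opposite TGFβ response in MII- than in MI-spheres, and none had a larger one. Among all 18591 genes tested, 9.85% were lower and 12.7% higher in this sense. The members' median interaction was -0.29 on the log2 scale. MYC had the lowest value of the 36 (-0.72 ± 0.07, edgeR adjusted p = 3.64e-12), followed by GAR1 (-0.67 ± 0.20, edgeR adjusted p = 0.0101) and LYAR (-0.62 ± 0.15, edgeR adjusted p = 0.00176). GAR1 is a small H/ACA protein, at 5.67, 5.78 and 5.35 CPM in unstimulated and 7.57, 9.22 and 9.24 CPM in stimulated MI-spheres. In MII-spheres its groups overlapped, at 6.28, 5.58 and 6.10 without and 5.14, 5.06 and 6.59 CPM with TGFβ. Of the 20 members that rose in both lines, 12 had a called interaction, and of the 10 that were not called in MII-spheres, 4 had one (GAR1, RRP12, HEATR1 and POLR1C). Among other ribosome biogenesis genes the interaction was lower for 28 and higher for 1 of 100.

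**Figure D2:**
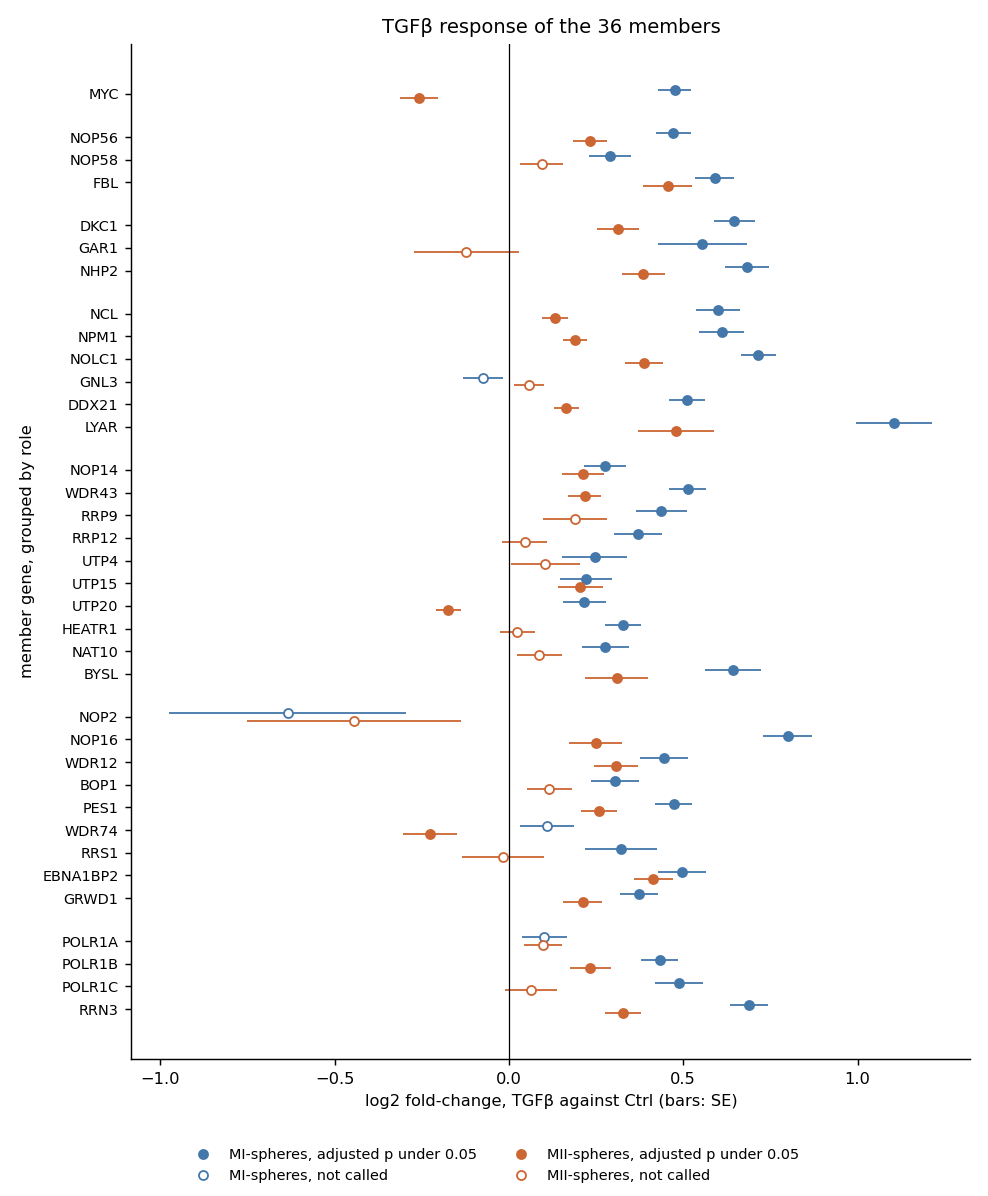
Log2 fold-change of TGFβ against Ctrl (horizontal axis) for each of the 36 members (vertical axis, grouped by role) in MI- (blue) and MII-spheres (orange). Bars are SE, and filled points were called at an adjusted p under 0.05. Most blue points lie right of the orange ones, and MYC and UTP20 lie on opposite sides of 0 in the 2 lines.

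The summed level of 10 proliferation genes was 422 to 431 CPM in unstimulated and 466 to 545 CPM in stimulated MI-spheres, with 4 of 10 higher and 1 lower. In MII-spheres it was 127 to 139 CPM without and 395 to 410 CPM with TGFβ, and all 10 rose (median log2 fold-change 1.43). Their part in the members' results was not tested. In bulk RNA a change in the share of cells that express a gene and a change in RNA per cell cannot be told apart.

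The next comparison was of the lines themselves. Without TGFβ 26 members were lower in MII- than in MI-spheres, 1 was higher and 9 were not called, with a median log2 fold-change of -0.34. Among 17862 genes tested, 32.6% were lower and 31.8% higher. MYC (-1.32 ± 0.04, edgeR adjusted p = 9.94e-46) and FBL were DEGs lower in MII-spheres, and UTP20 was a DEG higher in them, beside 20.1% of all genes. MYC was thus 2.49-fold lower. NOP56, the core protein that FBL binds in the box C/D snoRNP, was at 126.8, 127.3 and 125.3 CPM in MI- and at 71.1, 73.1 and 72.5 CPM in MII-spheres. Its log2 fold-change was -0.80 ± 0.04 (edgeR adjusted p = 5.79e-30). FBL was at 63.9, 63.0 and 59.0 CPM in MI- and, as given above, at no more than 32.4 CPM in MII-spheres, with a log2 fold-change of -1.04 ± 0.06 (edgeR adjusted p = 1.01e-27). Both sets of libraries were far apart for each gene.

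UTP20 went the other way. It was at 49.4, 50.3 and 45.5 CPM in unstimulated MI-spheres and above 362 CPM in all 3 unstimulated MII libraries, a log2 fold-change of 2.94 ± 0.04 (edgeR adjusted p = 4.90e-73), or 7.68-fold. The gene lies at chr12:101280105-101386618 on the plus strand, and none of its exonic bases overlap another gene. In MDA-MB-231 cells it was at 142 ± 13.0 CPM in WT and, in another sequencing batch, at 92.7 ± 3.87 CPM in Csi libraries. Its 10030 exonic bases make it one of the longest members.

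With TGFβ the lines lay further apart. Then 32 members were lower and 1 (UTP20) higher in MII- than in MI-spheres, 3 were not called (UTP15, NOP2 and POLR1A), and the median was -0.56. The background was 31.6% of 15878 genes lower and 31.2% higher. MYC reached -2.03 ± 0.05 (edgeR adjusted p = 5.16e-23), 4.09-fold lower, FBL -1.16 ± 0.07 (edgeR adjusted p = 3.50e-15) and NOP56 -1.02 ± 0.05 (edgeR adjusted p = 1.76e-16), and UTP20 was at 2.57 ± 0.05 (edgeR adjusted p = 6.60e-26). These 4 were the DEGs among the members, beside 19.7% of all genes. All 26 members lower without TGFβ were also lower with it, and the groups compared with TGFβ hold other libraries than those compared without it. A further 6 were lower with TGFβ only by call (GAR1, RRP12, UTP4, BYSL, WDR74 and POLR1C), and of these GAR1, RRP12, WDR74 and POLR1C had a called interaction.

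By role without TGFβ, all 3 box C/D members and all 6 scaffold and chaperone members were lower in MII-spheres, with medians of -0.80 and -0.39. The box H/ACA snoRNP had 2 of 3 lower, the large subunit 7 of 9, RNA polymerase I 2 of 4, and the small subunit 5 of 10 with UTP20 higher. Other ribosome biogenesis genes were lower in 53 and higher in 12 of 100 cases, with a median of -0.17. EIF6, an antiassociation factor of the large subunit, had the lowest value of these (-1.06 ± 0.04), and KRR1, of the small subunit, the highest (0.91 ± 0.05). With TGFβ 74 were lower and 5 higher. The 10 proliferation genes were all lower in unstimulated MII- than MI-spheres (median -1.72), and with TGFβ 5 were lower and 2 higher. Without TGFβ 4 of 7 basal mammary markers were lower and 3 higher in MII-spheres, all 4 mesenchymal markers were higher, and of 3 leukocyte and endothelial markers tested 2 were higher and 1 lower. The part of these lists in the members' results was not tested.

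**Figure D3:**
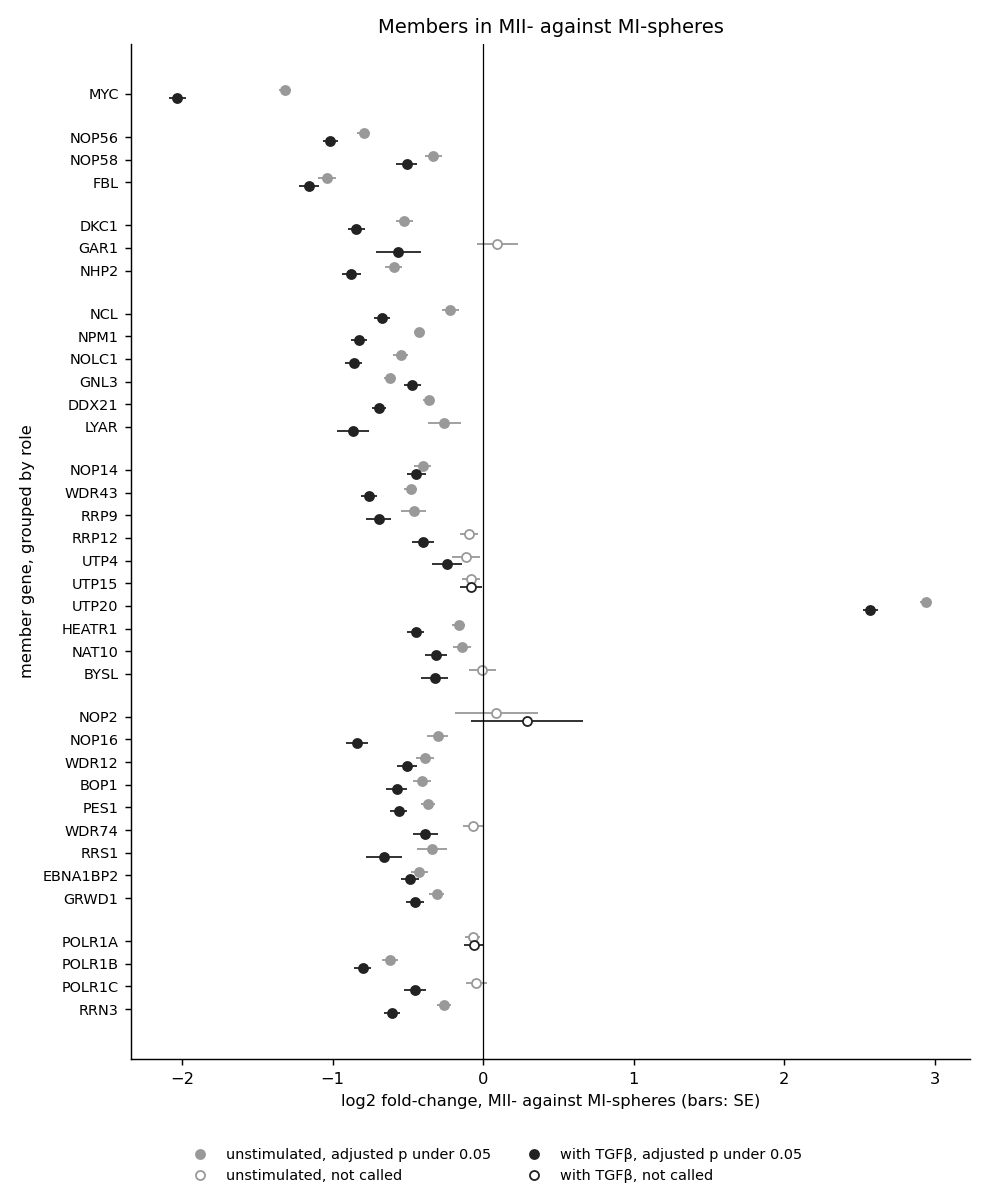
Log2 fold-change of MII- against MI-spheres (horizontal axis) for each member (vertical axis, grouped by role), unstimulated in grey and with TGFβ in black. Bars are SE, and filled points were called at an adjusted p under 0.05. UTP20 lies alone at 2.94 and 2.57, and MYC has the lowest values, -1.32 and -2.03.

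Genes tied to MYC in other ways were counted from fixed lists. In the MYC network, 12 of 13 genes were tested in the spheres. With TGFβ 3 rose and 5 fell in MI-, and 2 rose and 3 fell in MII-spheres. MXI1, an antagonist that also pairs with MAX, rose in both (0.45 ± 0.06 and 0.24 ± 0.06), and MYCL, a relative of MYC, fell in both (-1.61 ± 0.12 and -1.01 ± 0.13). MNT, another antagonist, fell in both (-0.69 ± 0.13 and -0.76 ± 0.11). Among genes known to be activated by MYC outside the nucleolus, 11 of 13 tested rose and 1 fell in MI-spheres. Of all genes tested there, 28.7% rose and 27.4% fell. In MII-spheres all 13 rose, beside 30% of all genes, and all 10 proliferation genes rose too. MYC fell in MII-spheres, and its part in these changes was not tested. LDHA, lactate dehydrogenase A, rose most of the 13, with log2 fold-changes of 2.04 ± 0.06 in MI- and 1.46 ± 0.03 in MII-spheres. NME1, a nucleoside diphosphate kinase, rose by 1.26 ± 0.08 and 1.19 ± 0.07. In unstimulated MII- against MI-spheres 12 of the 13 were lower and PTMA higher (0.24 ± 0.04). Of 4 genes tested that MYC is known to repress, 2 rose in MI-spheres (NDRG1 by 1.21 ± 0.05 and CDKN1A by 0.34 ± 0.05), and 1 rose and 2 fell in MII-spheres. CDKN1A rose there by 0.19 ± 0.03, CEBPA fell with -1.25 ± 0.16 and GADD45A with -0.46 ± 0.10.

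Over the 18 libraries of 1 sequencing batch, the log2 CPM of 33 of the other 35 members had a positive Spearman's rho with that of MYC, with a median of 0.53. The highest were POLR1B (0.84), PES1 (0.80) and GNL3 (0.76). The lowest were UTP20 (-0.82), NOP2 (-0.31) and, tied, RRN3 and BYSL (0.22). These libraries come from 3 lines and share their group structure and sequencing batch, so the values are descriptions.

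Levels of different members were compared per length, as TPM over genes of at least 300 exonic bases. NPM1, the nucleolar chaperone nucleophosmin, had the highest TPM of the members in all 8 groups. It ran from 302 in siSMAD2/3/4 to 1093 in stimulated MI-spheres, which are of different sequencing batches. NOP2 had the lowest, from 0.519 to 1.54, and 54.4% of its exonic bases overlap another gene. MYC ranked at place 5 of 36 in both MI groups, at 158 TPM without TGFβ. UTP20 ranked at place 4 in unstimulated MII-spheres, at 170 ± 2.92 TPM. Shorter genes were left out of this scale because of RN7SL1, of 299 bases. It took 30.7% to 54.6% of the length-scaled total in sphere libraries, 8.37% to 22.2% in WT and 15.9% to 25.5% in SLUG KO libraries. In Csi and siSMAD2/3/4 libraries, of the other sequencing batch, it took no more than 0.00295%.

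Members with and without CACGTG had similar median log2 fold-changes in MI-spheres, 0.47 in each set of 15. In MII-spheres the medians were 0.19 with and 0.21 without the motif. For unstimulated MII- against MI-spheres they were -0.36 and -0.30, and for stimulated ones -0.49 and -0.60. In the interaction they were -0.20 and -0.29, and with siSMAD2/3/4 -0.09 and -0.11. With SLUG KO, where no member was called, they had opposite signs, -0.18 with and 0.18 without the motif. UTP20, higher in MII-spheres, and FBL, lower in them, both hold it. These medians are given as descriptions.

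In MDA-MB-231 cells the siRNAs lowered their targets. SMAD2 went from 90.5 ± 1.67 to 23.95 ± 0.367 CPM, SMAD3 from 266 ± 6.00 to 165 ± 6.82 CPM and SMAD4 from 55.4 ± 1.20 to 16.8 ± 1.11 CPM. Of the 36 members 15 were lower with siSMAD2/3/4 and 1 was higher, with a median log2 fold-change of -0.11, beside 19.8% of 17696 genes lower and 16.3% higher. None was a DEG, beside 1.9% of all genes. MYC was not called (0.10 ± 0.05, edgeR adjusted p = 0.0847, from 0.0173 to 0.828 over 14 alternatives, 5 of which called it), at 80.6, 87.6 and 84.4 CPM with Csi and 92.7, 94.2 and 85.3 CPM with siSMAD2/3/4, and the groups overlapped.

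UTP15, a component of the processome's UtpA complex, had the lowest value among the members. It was at 22.1, 23.8 and 22.1 CPM with Csi and 19.3, 16.6 and 16.6 CPM with siSMAD2/3/4, a log2 fold-change of -0.38 ± 0.08 (edgeR adjusted p = 8.38e-05). LYAR went from 47.7, 55.4 and 56.6 to 43.6, 41.2 and 42.4 CPM (-0.34 ± 0.06, edgeR adjusted p = 7.06e-06), and FBL from 88.3, 91.7 and 95.7 to 76.8, 74.6 and 71.8 CPM (-0.31 ± 0.05, edgeR adjusted p = 5.25e-07). RRN3, which recruits RNA polymerase I to its promoter, was the 1 member higher, from 36.01, 39.65 and 38.8 to 48.5, 48.9 and 47.5 CPM (0.33 ± 0.06, edgeR adjusted p = 4.81e-06). The groups of these 4 genes did not overlap. By role, 2 of 3 box C/D, 1 of 3 box H/ACA, 5 of 6 scaffold and chaperone, 2 of 10 small-subunit, 4 of 9 large-subunit and 1 of 4 RNA polymerase I members were lower.

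Of 99 other ribosome biogenesis genes tested, 35 were lower and 7 higher with siSMAD2/3/4, among them TCOF1, the nucleolar protein treacle (-0.41 ± 0.05). Genes known to be activated by MYC outside the nucleolus were lower in 12 of 15 cases, PAICS, a purine synthesis enzyme, most (-0.69 ± 0.04). Libraries 1 and 2 of siSMAD2/3/4 name another flow cell in their file headers than library 3 and the Csi libraries. With flow cell as a term 10 members were lower and 1 higher, beside 14.16% of all genes lower and 10.74% higher, and MYC had a log2 fold-change of 0.0244 (edgeR adjusted p = 0.828). Without Csi replicate 3 these counts were 9 and 1, beside 16.6% and 13.28% of all genes. All 10 proliferation genes were lower too (median -0.79, summed level 2434 to 2561 CPM with Csi and 1454 to 1506 CPM with siSMAD2/3/4). The part of these in the result was not tested.

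In the libraries labelled SLUG KO, RNA of the targeted gene SNAI2 was higher and not lower. It was at 30.2, 20.9 and 33.7 CPM in WT and at 63.5, 57.7 and 64.3 CPM in SLUG KO libraries (log2 fold-change 1.10 ± 0.22, edgeR adjusted p = 0.0443). Over 13 alternatives the log2 fold-change ran from 0.94 to 1.25, and 5 of them called it, with adjusted p from edgeR or DESeq2 between 6.34e-07 and 0.239. The guide cuts at the beginning of exon 1, and counts over the whole gene do not check such an edit, so directions here follow the labels alone. No member was called by edgeR, beside 1.34% of 17428 genes higher and 1.8% lower, and DESeq2 called none either. The members' log2 fold-changes ran from -0.80 to 0.61. Data simulated for this comparison gave calls for 0 of 47 tested genes changed by 0.5 and 4 of 50 changed by 1. The simulation changed few genes, drawn at any level, so it does not give the share missed among the members. Changes of the members' size could still be missed here. At an unadjusted p under 0.05 there were 8 members, beside 18.6% of all genes, and the median was -0.11. No member was a DEG, beside 2.96% of all genes.

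MYC was at 84.4, 124.8 and 95.9 CPM in WT and at 170, 136.8 and 167.3 CPM in the libraries labelled SLUG KO. The groups did not overlap, and the log2 fold-change of 0.61 ± 0.21 missed the threshold (edgeR adjusted p = 0.184). Without WT replicate 2, in which MYC was highest among the WT libraries, it was 0.80 ± 0.10 (edgeR adjusted p = 4.93e-06). Then MYC and POLR1B were higher and 10 members lower (NOP56, FBL, DKC1, GAR1, NCL, NOLC1, UTP4, BYSL, NOP2 and EBNA1BP2), beside 17.05% of all genes higher and 14.3% lower. The call for the members in this comparison thus rests on 1 WT library. Proliferation genes summed to 3393 to 3618 CPM in WT and 2487 to 2548 CPM in libraries labelled SLUG KO. None of the 10 was called by edgeR, 2 had an unadjusted p under 0.05, 3 had a positive log2 fold-change and the median was -0.12. MKI67 (900 ± 649 CPM in WT and 244 ± 11.6 CPM in SLUG KO) and TOP2A (1105 ± 262 and 771 ± 31.4 CPM) differed most in level. WT replicate 2 held 1634 CPM of MKI67, where the other WT libraries held 665 and 401 CPM. For TOP2A it held 814 CPM, where they held 1178 and 1323 CPM. The part of the proliferation genes was not tested.

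**Figure D4:**
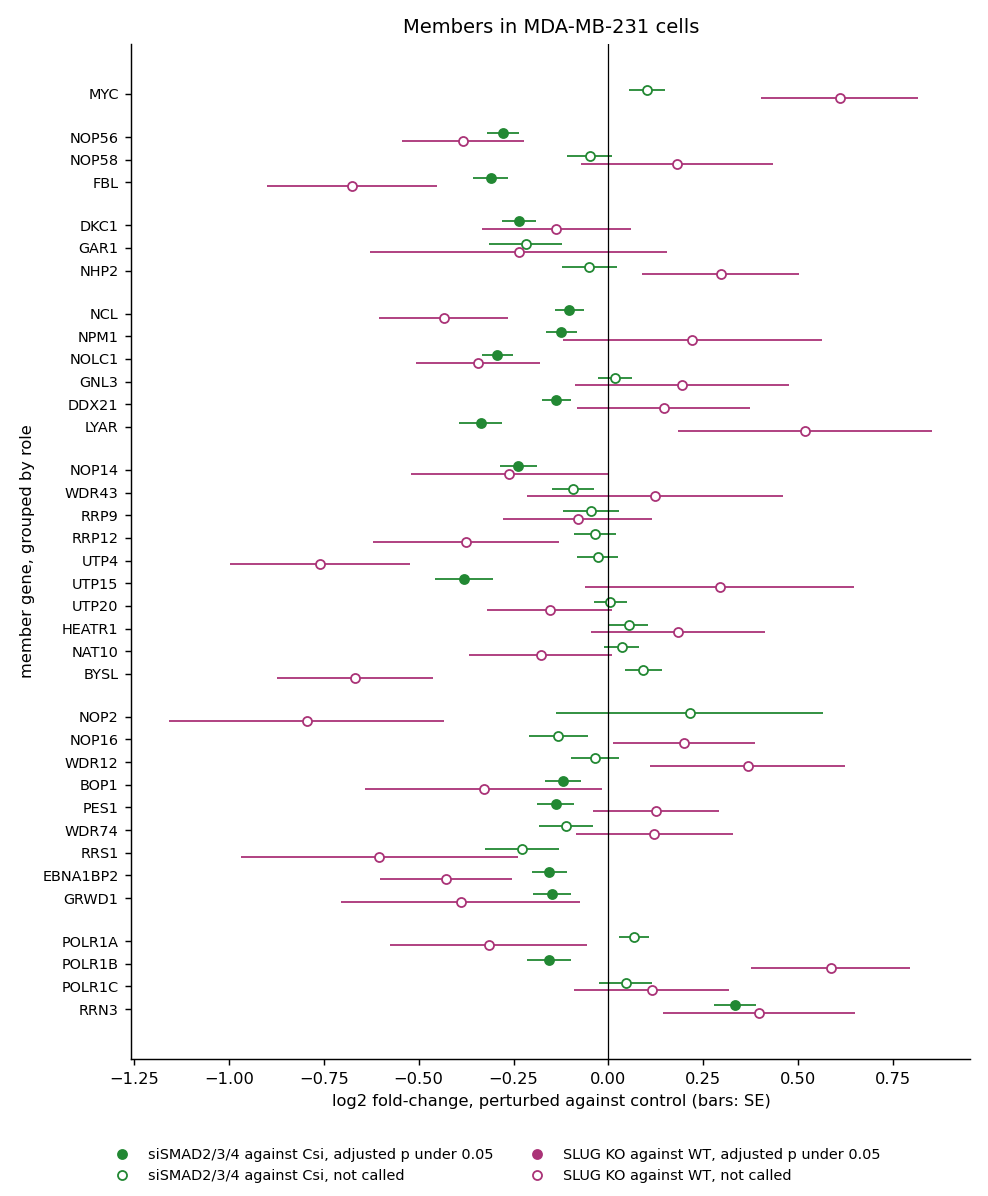
Log2 fold-change (horizontal axis) of siSMAD2/3/4 against Csi (green) and of libraries labelled SLUG KO against WT (purple) for each member (vertical axis, grouped by role). Bars are SE, and filled points were called at an adjusted p under 0.05. With all WT libraries no purple point is filled, and its bars are the wider ones, while 16 green points are filled.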

How the data were processed

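Per the labels and methods, the authors used Trimmomatic for trimming, STAR for alignment to GRCh38.p13, and featureCounts 2.0.0 to count fragments on GENCODE 38 exons, keeping pairs with both ends mapped at a mapping quality of 30 or more and ignoring strand, so antisense and overlapping genes are uncertain. The deposited values are raw counts per gene and library, with no normalization. Total counts ran from 14124688 to 38406952, and the errors given come from the spread of 3 libraries per group. Symbols were matched by gene ID (60463 of 60708).

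Analysis used R 4.3.3, edgeR 4.0.16, DESeq2 1.42.0 and Python 3.11.15. Every fit held only the 6 libraries it compared (12 for the interaction) after filterByExpr and TMM, with edgeR's robust quasi-likelihood test, Benjamini-Hochberg adjusted over all genes tested. CPM use TMM over all 24 libraries, so ratios of printed CPM can differ from the fitted fold-changes. With 3 libraries on each side, exact permutation p-values have 0.1 as their lower limit. Scripts were tested on simulated data. Labels call the libraries biological replicates without saying how cultures were split, so p-values measure the spread between these libraries.

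Members and lists were chosen with earlier results of these data known. Named with full statistics were MYC and up to 3 called, non-overlapping members at each end of a comparison, and up to 2 genes per direction of other lists, of which some are left out. Alternatives were DESeq2, its size factors, library totals, other filters, a gene-length trend, a replicate block, flow cell, 12 libraries in 1 fit and leaving out each library. A TPM scaling was added after seeing the data.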

Additional observations from a re-analysis of the deposited data

Results flagged for a closer look

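The response to TGFβ differed between the 2 lines for 19 members, by the test of the interaction over the 12 sphere libraries (edgeR's quasi-likelihood test, adjusted p under 0.05). Values are the log2 response in MII- minus that in MI-spheres. Beyond MYC (-0.72), the scaffold and chaperone members were LYAR (-0.62), NCL (-0.46), NPM1 (-0.41), DDX21 (-0.34) and NOLC1 (-0.32). The snoRNP members were GAR1 (-0.67), DKC1 (-0.32), NHP2 (-0.29) and NOP56 (-0.23). For the large subunit they were NOP16 (-0.54), WDR74 (-0.32) and PES1 (-0.20), and for RNA polymerase I POLR1C (-0.41) and RRN3 (-0.35). Those of the small subunit were UTP20 (-0.38), RRP12 (-0.31), HEATR1 (-0.29) and WDR43 (-0.29).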

How the results depend on the processing

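Directions of the members' medians held under all alternatives run. Scaled by library totals, members lower in MI-spheres went from 0 to 1 and members higher in MII-spheres from 20 to 9, and medians were 0.32 in MI-, 0.0583 in MII-spheres, -0.24 for unstimulated and -0.48 for stimulated MII- against MI-spheres. TPM gave 0.32, 0.0605, -0.25 and -0.48. SMAD7 in MI-spheres, not called, turned to -0.0346 by totals. DESeq2 gave a median of 0.50 in MI-spheres, and no filter gave -0.37 for the unstimulated lines. Members higher with siSMAD2/3/4 were 2 by totals, 2 with at least 10 counts in every library and 3 with the length trend removed. Leaving out 1 library each gave 0 to 1 members lower in MI-spheres, 0 to 1 higher in the interaction, 1 to 2 higher and 9 to 14 lower with siSMAD2/3/4, and 0 to 2 higher, 0 to 10 lower and medians from -0.12 to -0.0141 with SLUG KO. With a replicate block, member calls were 32 higher and 0 lower in MI-spheres and 20 and 3 in MII-spheres, as without it, and same-numbered libraries did not deviate together (correlations from -0.185 to 0.0517). Of 531 other values for named genes, 464 were past the threshold both as reported and under the alternative and 47 in neither, 12 lost it (SNAI2 with SLUG KO 8 times, WDR74 in MII-spheres 4 times), 7 gained it (MYC with siSMAD2/3/4 5 times, MYC with SLUG KO and SMAD7 in MII-spheres once each), and the SMAD7 value above changed sign. NOP2 is limited by few counts, at about 1 CPM, and by the 54.4% of its exonic bases that overlap another gene. DEG status was not stable where a log2 fold-change lay near the cut-off of 1. Over the alternatives LYAR in MI-spheres ran from 0.96 to 1.23. In MII- against MI-spheres, FBL without TGFβ ran from -1.12 to -0.95 and NOP56 with TGFβ from -1.05 to -0.93. Small changes are limited by 3 libraries a group.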
